A study of Homo sapiens with 12 samples.

Results

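The 10 heat shock genes HSPA1A, HSPA1B, DNAJB1, HSPH1, HSPA8, HSP90AA1, HSPB1, HSPE1, HSPD1 and BAG3 were chosen by name from the 60669 gene IDs of the count table, and all 10 were paired with an ID. RNA-seq counts came from 6 established cell lines that the paper describes as human ovarian cancer. Each was treated with quinacrine (QC) at 8 µM or with buffer alone (vehicle) for 6 h. The lines formed 3 isogenic families, sensitive HeyA8 with resistant HeyA8-MDR, sensitive SK-OV-3 with the taxol-resistant SK-OV-3-TR, and sensitive OV2008 with C13, a cisplatin-resistant line derived from it. Each line and treatment had 1 library, 12 in all, so the 3 lines of a group stand in for replicates and no single line has an error of its own. No animal, transgene or second agent was involved. Total counts per library ran from 17782556 to 30585059, with a median of 22289428.

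When proteins misfold, heat shock factor 1 (HSF1) trimerises, binds inverted repeats of GAA in promoters (heat shock elements) and switches on genes for chaperones, the proteins that hold and refold unfolded clients. HSP70 proteins do the folding with a J-domain partner that delivers clients and a nucleotide exchange factor that releases them, HSP90 matures signalling proteins, and small heat shock proteins keep unfolded proteins from aggregating. Cancer cells often depend on high chaperone levels, and QC, an acridine drug first used against malaria, has been described as a suppressor of HSF1-driven transcription. The label "cytosolic" holds for 8 of the 10 genes: HSPD1 and HSPE1 encode the chaperonin and co-chaperonin of mitochondria.

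The promoter sequences show where the letters of a heat shock element stand in these genes. They come from RefSeq windows of 300 bases on GRCh38.p14, which held 14 windows for the 10 genes. Matches of 3 alternating units (GAA, TTC and GAA, or TTC, GAA and TTC, with 2 free bases between neighbours) were found in windows of 3 of the 10 genes, HSPA8, HSP90AA1 and HSPD1, against 0.49% of all 35116 windows. Matches of 2 such units (GAA and TTC, or TTC and GAA), which also lie inside every match of 3 units, were found in 7 of the 10 genes, against 13.5% of all windows. A gene counted if any of its windows matched, and DNAJB1 had 3 windows and HSP90AA1 and HSPD1 2 each. Counts of genes and shares of windows are therefore unlike units. Each pair of patterns reads the same on both strands, and no match was found in the windows of HSPH1, HSPE1 and BAG3. The stretches are printed 5′ to 3′ on the strand of the gene, with capitals for the matched letters (3 units where present, otherwise 2). Only the group of matches nearest upstream of the start is printed. Not shown are 1 of the 2 matches of 3 units in HSPA8 and the match of 2 units in a further DNAJB1 window.
HSPA8 (chr11:123062159-123062211, minus strand): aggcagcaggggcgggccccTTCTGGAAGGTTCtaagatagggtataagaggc
HSP90AA1 (chr14:102087100-102087152, minus strand): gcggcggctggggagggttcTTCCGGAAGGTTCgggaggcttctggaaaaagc
HSPD1 (chr2:197500062-197500090, minus strand): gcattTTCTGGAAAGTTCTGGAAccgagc
DNAJB1 (chr19:14518417-14518494, minus strand): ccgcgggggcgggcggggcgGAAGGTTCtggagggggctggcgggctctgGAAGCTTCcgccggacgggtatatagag
HSPB1 (chr7:76302471-76302518, plus strand): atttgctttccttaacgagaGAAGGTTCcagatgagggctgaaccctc
HSPA1A (chr6:31815417-31815464, plus strand): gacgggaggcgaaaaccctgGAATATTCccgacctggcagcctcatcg
HSPA1B (chr6:31827613-31827660, plus strand): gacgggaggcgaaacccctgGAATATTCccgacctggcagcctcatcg
These matches describe letters only, and binding of HSF1 was not measured.

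The position of the QC libraries within their families was checked first. Genes at least 8-fold apart between the HeyA8 and HeyA8-MDR vehicle libraries lay between the lines in the HeyA8 QC library, a median of 36.1% of the way to HeyA8-MDR for the 56 genes higher there and 52.4% for the 113 genes lower there. In the HeyA8-MDR QC library the corresponding positions towards HeyA8 were 30.9% and 3.57%. In the OV2008 QC library the median position towards C13 was 29.8% for the 63 genes lower in C13 and 1.60% for the 70 higher ones, and all SK-OV-3, SK-OV-3-TR and C13 positions were 11.8% or less. DNAJB1 and HSPA1A, which were 1.63 and 2.40 higher in HeyA8-MDR than in HeyA8 vehicle on the log2 scale, lay 15.04% and 13.5% of the way in the HeyA8 QC library. The remaining 7 genes differed by at most 0.30 in log2 between the vehicle libraries of the pair. The part of these positions in the HeyA8 values was not tested, and without HeyA8 the median log2 change of the heat shock genes over all lines was 0.06 in place of 0.12.

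The heat shock genes differed between QC and vehicle in opposite directions in different lines, and the direction did not follow drug resistance. All 9 of the genes that could be tested were higher with QC than with vehicle in SK-OV-3-TR and in HeyA8, and all 9 were lower in OV2008 and in C13. HeyA8-MDR and SK-OV-3 each had 5 higher and 4 lower. The median log2 change of the 9 genes was 1.27 in SK-OV-3-TR, 0.39 in HeyA8, 0.35 in HeyA8-MDR, 0.07 in SK-OV-3, -0.49 in OV2008 and -0.68 in C13. In bulk libraries such as these, fewer cells with a transcript and less of it per cell cannot be told apart. Over all 18720 genes tested, 47.3% were higher with QC in SK-OV-3-TR, 48.5% in HeyA8, 46% in HeyA8-MDR and 49% in SK-OV-3, while 45.7% were lower in OV2008 and 48.7% in C13. The gene left out of the tests, HSPA1B, had 0 counts in all 12 libraries. The pattern of higher in HeyA8 and SK-OV-3-TR together with lower in OV2008 and C13, described here after its values were seen, was met by 9 of the 9 genes and by 7.5% of the 18720 genes tested.

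**Figure D1:**
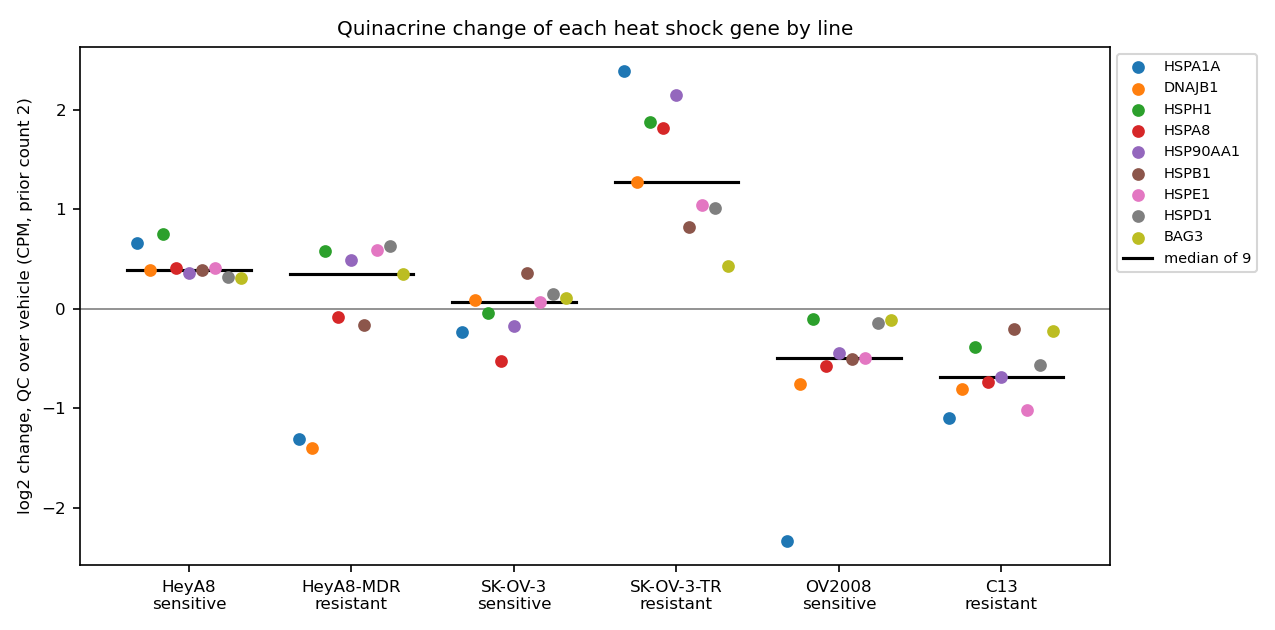
Log2 change with QC over vehicle (vertical axis, log2 of normalized CPM with a prior count of 2) for each of 9 heat shock genes (colours) in each line (horizontal axis), 1 pair of libraries per line, with a bar at the median of 9. All points lie above 0 in HeyA8 and SK-OV-3-TR and below 0 in OV2008 and C13, and the medians run from -0.68 in C13 to 1.27 in SK-OV-3-TR.

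Levels are given as CPM (counts scaled to library size with edgeR's TMM factors), and genes are compared with each other only per kilobase of exon. That length merges the exons of all annotated transcripts of a gene, from 1623 bases for HSPB1 to 8391 for HSPH1. The order below depends on it: before division by length HSPD1 had a median of 506 CPM and HSPB1 188 CPM. HSP90AA1 and HSPA8 were the most abundant, with medians over the 12 libraries of 412 and 411.5 CPM per kb, and their ranges overlapped (168.6 to 863.2 and 122.7 to 771.6 CPM per kb). HSPB1 followed with a median of 115.9, then HSPD1 with 66.3 and BAG3 with 52.3 CPM per kb. HSPH1 had 29.5, HSPE1 22.01 and DNAJB1 14.4 CPM per kb, and each of these ranges overlapped that of its neighbour in the order. HSPA1A was far below with 0.531 CPM per kb, and its highest library (1.18) lay under the lowest of DNAJB1 (6.27 CPM per kb). Most of its sequence is shared with HSPA1B (72.4% of 100-base windows), and how shared reads were counted is not stated. Its counts may therefore understate its RNA.

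**Figure D2:**
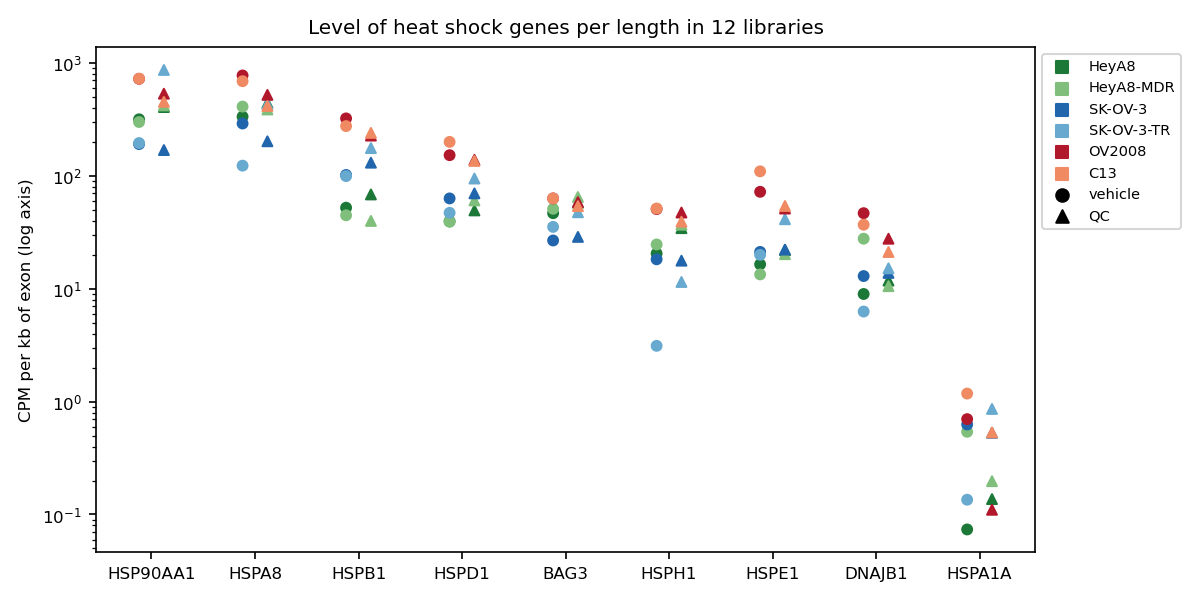
Level of 9 heat shock genes in CPM per kb of exon (vertical log axis) in each of 12 libraries, coloured by line, with circles for vehicle and triangles for QC. The genes are ordered by their median, from HSP90AA1 at 412 to HSPA1A at 0.531 CPM per kb. The vehicle circles of OV2008 and C13 stand above those of the other lines in every gene, by a small margin for OV2008 in HSPA1A.

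Without drug, OV2008 and C13 carried the most heat shock RNA. In all 9 genes the vehicle libraries of both lines lay above those of the other 4 lines, where 17.8% of all genes tested showed that order. For HSPA1A the order rested on a small margin, 1.68 CPM in OV2008 (30 counts) against 1.51 CPM in SK-OV-3 (36 counts). With QC, 5 of the 9 genes still did (17.5% of all genes). The 10 genes together took 0.972% of the counts of OV2008 and 1.01% of those of C13 in vehicle, and 0.743% and 0.724% with QC. In SK-OV-3-TR their share went the other way, from 0.267%, the lowest of the 12 libraries, to 0.840%. The levels of the 6 lines lay closer together with QC than with vehicle in all 9 genes by the SD of log2 CPM, which held for 55.5% of all genes. By the ratio of the highest to the lowest line, however, HSP90AA1 was wider with QC (5.12-fold) than with vehicle (3.79-fold). For DNAJB1 that SD was 1.17 in vehicle and 0.53 with QC, and for HSPA8 it was 0.96 and 0.48, while for HSP90AA1 it was 0.86 and 0.77 and for BAG3 0.49 and 0.42, beside medians over all genes of 0.92 and 0.88. The change with QC is taken from the same vehicle library, and the part of that in the narrower spread was not tested.

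**Figure D3:**
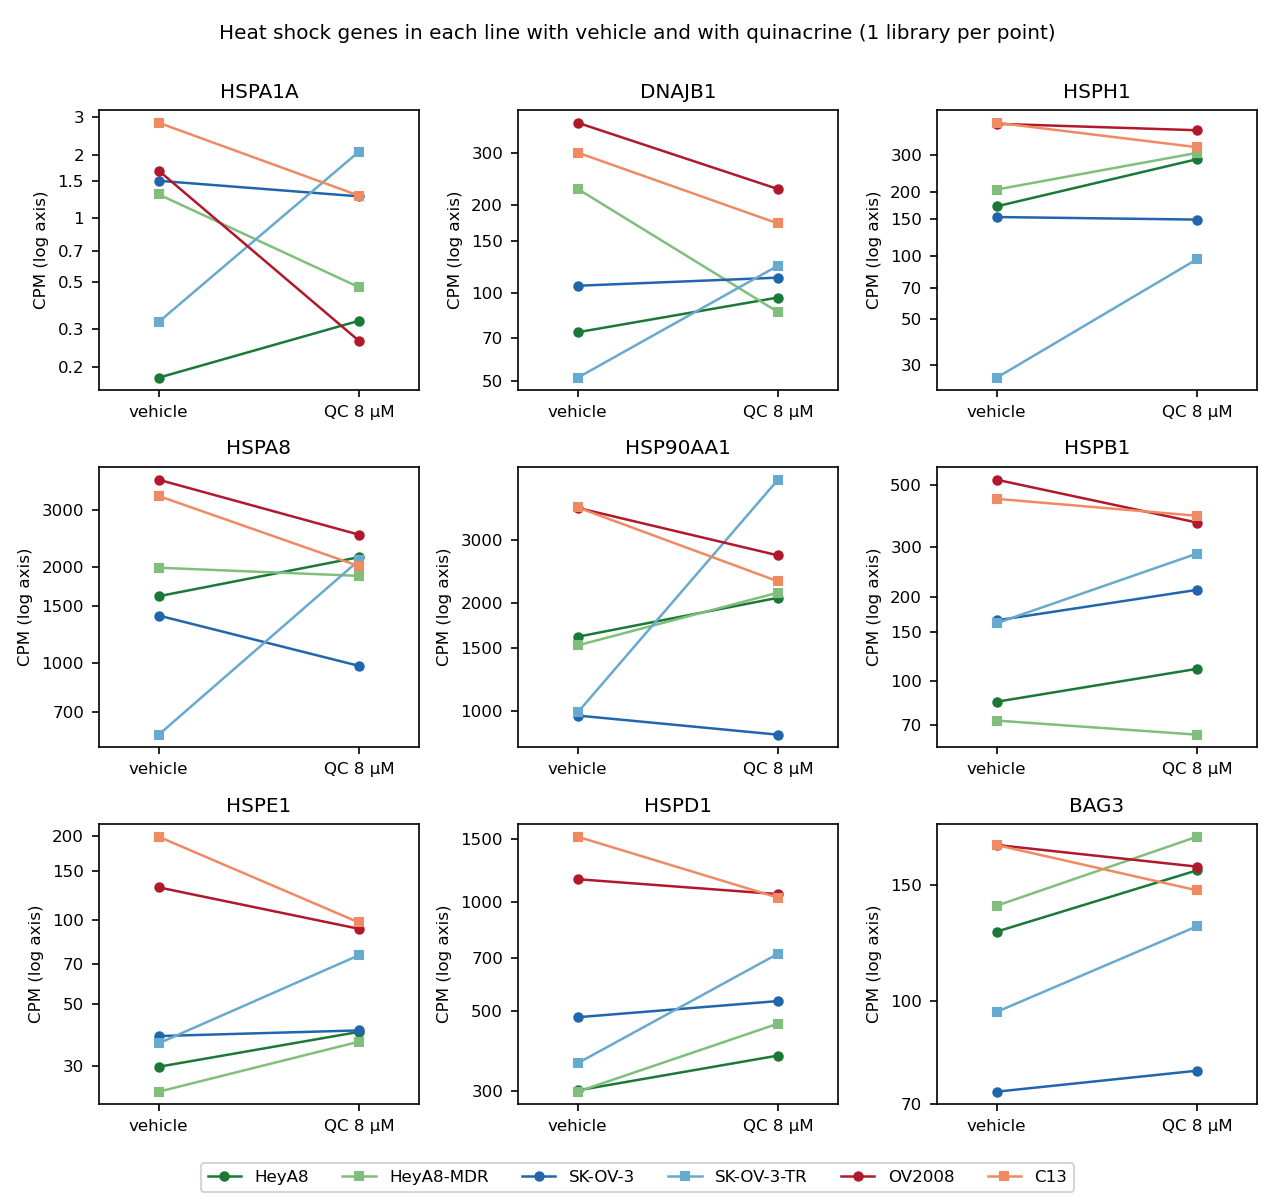
CPM (vertical log axis) of 9 heat shock genes in vehicle and QC libraries, with 1 line joining the pair of libraries of each cell line (circles sensitive, squares resistant). SK-OV-3-TR (light blue) climbs in every panel, as from 992 to 4400 CPM for HSP90AA1, while OV2008 and C13 (red and orange) start above the other lines and slope down.

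Among the HSP70 genes, HSPA8 encodes the constitutive cytosolic HSC70. Its level was 595 CPM in SK-OV-3-TR vehicle and 2092 with QC, a 3.51-fold difference. In HeyA8 it was 1615 and 2140 CPM, and in HeyA8-MDR 1984 and 1871 CPM. The change was therefore upward in 2 lines only. SK-OV-3 had 1405 CPM in vehicle and 978 with QC, OV2008 3742 and 2518, and C13 3328 and 2007. The 3 resistant QC libraries lay close together, at 1990 ± 112 CPM (SD, n = 3), beside 1969 ± 1367 in the resistant vehicle libraries. The vehicle and QC ranges overlapped in both groups, and the log2 fold change was -0.23 (SE 0.386) in sensitive and 0.31 (SE 0.407) in resistant lines.

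HSPA1A and HSPA1B encode the stress-inducible HSP70, and their near-identical transcripts limit what the counts can show. Of the 100-base windows of the HSPA1A transcript, 72.4% also occur in HSPA1B, while 0 windows of HSPA8 occur in HSPA1A. Reads from the shared stretches cannot be told apart between the 2 genes, and how the counting treated them is not stated. HSPA1B had 0 counts in every library, which allows up to 3 counts, or 0.0886 to 0.178 CPM by library (counting error only). On the same strand, 36.6% of the exon length of HSPA1B overlaps another gene, ENSG00000285565. HSPA1A had 4 counts in HeyA8 vehicle and 9 with QC, 25 and 8 in HeyA8-MDR, and 36 and 28 in SK-OV-3. It had 11 and 39 counts in SK-OV-3-TR, 30 and 6 in OV2008, and 85 and 34 in C13. Its direction was thus up in HeyA8 and SK-OV-3-TR and down in the other 4 lines, on counts too low for a firm size.

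DNAJB1 is the J-domain (HSP40) partner that brings clients to HSP70. It was 73.4 CPM in HeyA8 vehicle and 96.4 with QC, 106 and 113 in SK-OV-3, and 381 and 226 in OV2008. HeyA8-MDR went from 227 to 86.1 CPM, SK-OV-3-TR from 51.3 to 124 and C13 from 301 to 173. The resistant lines were split, with 2 lower and 1 higher. DNAJB1 and HSPA1A were the genes that stood lower in HeyA8-MDR by more than 2-fold (log2 changes of -1.40 and -1.31), whereas HSPH1, HSPD1, HSPE1, HSP90AA1 and BAG3 were higher there, by 0.35 to 0.63. The log2 fold change of DNAJB1 was -0.09 (SE 0.396) in sensitive and -0.34 (SE 0.42) in resistant lines. Without SK-OV-3-TR the resistant value was -1.08 (SE 0.295), with an unadjusted edgeR p of 0.00373 and an adjusted p of 0.736, and without HeyA8-MDR it was 0.21.

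HSPH1 encodes HSP110, the nucleotide exchange factor that lets HSP70 release its clients and takes part in dissolving aggregates. Its vehicle level was 26.1 CPM in SK-OV-3-TR and 153 in the parental SK-OV-3, and between the lowest and the highest line the vehicle levels spanned 16.4-fold. With QC, SK-OV-3-TR had 96.0 and SK-OV-3 148 CPM. HeyA8 had 172 and 288 CPM in vehicle and QC, HeyA8-MDR 206 and 309, OV2008 425 and 396, and C13 430 and 328. HSPH1 was higher with QC in 3 lines, by 1.49 to 3.66-fold, and lower by small amounts in the other 3, by a log2 change of -0.04 to -0.39. It had the smallest p of the 9 genes over all 6 lines, with a log2 fold change of 0.43 (SE 0.241), an unadjusted edgeR p of 0.0998 and an adjusted p of 0.419.

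HSP90AA1 encodes the stress-responsive cytosolic HSP90 alpha. It reached 4400 CPM in the QC library of SK-OV-3-TR, 4.44-fold its vehicle level of 992 CPM and the highest of its 12 libraries. HeyA8 had 1609 CPM in vehicle and 2065 with QC, and HeyA8-MDR 1523 and 2134. SK-OV-3 had 971 and 859 CPM, OV2008 3674 and 2711, and C13 3684 and 2295. In vehicle, partner lines had nearly the same level of this gene, with log2 differences (resistant minus sensitive) of -0.08 in the HeyA8 family, 0.03 in the SK-OV-3 family and 0.00 in the OV2008 family. The QC effect was larger in resistant than in sensitive lines by an estimated 0.72 (SE 0.577, adjusted p of 0.9998 by edgeR's quasi-likelihood test), the largest estimate of the 9 genes for that comparison. It ran from 0.02 without SK-OV-3-TR to 1.40 without C13.

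HSPB1, the small heat shock protein HSP27, binds unfolded proteins without ATP. It was 84.5 CPM in HeyA8 vehicle and 111 with QC, 72.4 and 64.5 in HeyA8-MDR, and 165 and 212 in SK-OV-3. SK-OV-3-TR had 161 and 285 CPM, OV2008 522 and 367, and C13 446 and 388. BAG3, a nucleotide exchange factor that links HSP70 and small heat shock proteins to autophagy, varied least. Its 12 libraries ran from 73.0 to 177 CPM, and its vehicle levels spanned 2.36-fold. Its log2 changes were 0.31 in HeyA8, 0.35 in HeyA8-MDR, 0.11 in SK-OV-3, 0.43 in SK-OV-3-TR, -0.11 in OV2008 and -0.23 in C13.

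The mitochondrial pair had the same direction in every line, and BAG3 shared that direction in each. So did STIP1, CACYBP, MRPL18, TCP1, GRPEL1 and STUB1 of the related genes below, and the share of all genes with these directions was not counted. In SK-OV-3 the log2 changes of the pair were small, 0.15 for HSPD1 and 0.07 for HSPE1. HSPD1 (HSP60) and HSPE1 (HSP10) form the folding chamber of the matrix and its lid, and their RefSeq promoter windows on chromosome 2 overlap on opposite strands (197500129 to 197500428 for HSPE1 and 197500225 to 197500524 for the first HSPD1 start). HSPD1 had 301 CPM in HeyA8 vehicle and 376 with QC, 298 and 461 in HeyA8-MDR, and 480 and 532 in SK-OV-3. It had 358 and 720 CPM in SK-OV-3-TR, 1159 and 1054 in OV2008, and 1520 and 1030 in C13. Both genes were higher with QC in the HeyA8 and SK-OV-3 families and lower in the OV2008 family. HSPE1 had 29.9 and 39.9 CPM in HeyA8, 24.4 and 36.8 in HeyA8-MDR, and 38.5 and 40.4 in SK-OV-3. It had 36.3 and 75.0 CPM in SK-OV-3-TR, 131 and 93.3 in OV2008, and 199 and 98.3 in C13, a log2 change of -1.02. Of the exon length of HSPE1, 17.9% overlaps other genes, HSPD1 and the readthrough HSPE1-MOB4 among them, and its pseudogene copies held up to 2.09% of its count.

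With all 6 lines, TMM scaling and the expression filter, no heat shock gene passed a test of the QC effect. In sensitive lines 0 of the 9 genes had an unadjusted p under 0.05 by edgeR's quasi-likelihood test, against 6.59% of the 18720 genes, and their median log2 fold change was -0.01 beside 0.02 over all genes. In resistant lines it was 0 of 9 against 6.03%, with medians of 0.21 and -0.01. HSPH1 (0.68, SE 0.349, adjusted p of 0.823 by edgeR) and HSP90AA1 (0.64, SE 0.422, adjusted p of 0.846 by edgeR) had the highest resistant estimates. The difference between resistant and sensitive lines gave 0 of 9 against 1.16%, and the single effect over all 6 lines 0 of 9 against 15.2%. After adjustment 0 genes of any kind passed in any of these tests. The exact sign-flip test over the 6 lines, which cannot go below 0.031, gave two-sided p-values from 0.25 (HSPH1 and BAG3) to 1 (HSPA8). None of the 9 genes kept 1 direction in all 6 lines, against 8.73% of all genes, and none moved 1 way in the 3 sensitive lines and the other way in the 3 resistant lines (0.983%). In none did the vehicle and QC ranges of a group fail to overlap (2.02% of all genes in sensitive and 1.78% in resistant lines).

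The resistant estimates rested on single lines. Without C13 the median of the 9 genes in resistant lines was 0.80 and 4 of the 9 genes had an unadjusted p under 0.05 by edgeR, against 7.29% of all genes in that fit, among them HSPH1 at 1.21 (SE 0.317) and HSP90AA1 at 1.305 (SE 0.351), with an adjusted p of 0.668 for both. Without SK-OV-3-TR that median was -0.17, and HSP90AA1 was at -0.08. In sensitive lines it was -0.22 without HeyA8 and 0.23 without OV2008.

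Within single lines, differences past 2-fold were concentrated in SK-OV-3-TR. There 7 of the 9 genes were more than 2-fold higher with QC, against 3.64% of all genes, and the exceptions were HSPB1 (1.77-fold) and BAG3 (1.35-fold). In C13 2 genes, HSPA1A and HSPE1, were more than 2-fold lower (3.16% of all genes), in OV2008 only HSPA1A (8.12%), and in HeyA8-MDR DNAJB1 and HSPA1A (9.49%). HeyA8 and SK-OV-3 had 0 past 2-fold in either direction, against 17.1% and 8.26% of all genes. These are differences between single libraries and carry no test.

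The choice of scaling altered the direction in the OV2008 family. Scaling each library to RPLP0, the reference gene of the study's qPCR, moved the median change of all genes to 0.46 in OV2008, 0.43 in C13 and 0.28 in SK-OV-3, and then 4 of 9 heat shock genes were higher with QC in OV2008, 3 in C13 and 8 in SK-OV-3. Relative to that median all 9 were still below in OV2008 and C13. Library size or DESeq2's size factors changed the direction of none of the 9 genes in any line, although library size moved the median of all genes by 0.12 in C13, -0.12 in SK-OV-3-TR and -0.13 in HeyA8-MDR. With RPLP0 scaling all 9 stayed higher in HeyA8 and SK-OV-3-TR.

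In vehicle the resistant lines did not differ from their partners in 1 common direction. Without drug 5 of 9 were higher in HeyA8-MDR than in HeyA8, 2 of 9 in SK-OV-3-TR than in SK-OV-3, and 5 of 9 in C13 than in OV2008, beside 47.2%, 50.0% and 51.6% of all genes. SK-OV-3-TR was lower than its parent in HSPH1 by a log2 difference of -2.54, in HSPA1A by -1.96, in HSPA8 by -1.24 and in DNAJB1 by -1.04. HeyA8-MDR was higher in HSPA1A and DNAJB1, as given above, and C13 was higher than OV2008 in HSPA1A by 0.72, HSPE1 by 0.60 and HSPD1 by 0.39. Tested with the isogenic family as a block, 0 of 9 genes had an unadjusted p under 0.05 against 3.71% of all genes, and the estimates ran from -0.70 (SE 0.603) for HSPH1 to 0.45 (SE 1.19) for HSPA1A.

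The likeness of the changes across lines is given as a description only, over 6 lines that share scaling, and other gene pairs were not measured for comparison. Leaving out HSPA1A, the 28 pairs among 8 genes had Pearson correlations of their log2 changes from 0.49 to 0.99, with a median of 0.83 and the lowest for DNAJB1 with BAG3. Without SK-OV-3-TR the range was 0.01 to 0.99 and the median 0.80. Over the 12 libraries the genes most like the mean pattern of the 9 were STIP1 (r of 0.95), the co-chaperone that joins HSP70 to HSP90, UQCRQ (0.93), a respiratory chain subunit, RUVBL1 (0.93), an AAA ATPase, SNRPD3 (0.92), a spliceosome core protein, and MCMBP (0.92), which binds the MCM helicase. STIP1 differed with QC by log2 changes of 1.25 in SK-OV-3-TR, 0.56 in HeyA8, 0.37 in HeyA8-MDR, 0.07 in SK-OV-3, -0.25 in OV2008 and -0.65 in C13.

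Related chaperone genes were read beside them. Of 22 other targets of heat shock factors, 20 were higher with QC in SK-OV-3-TR (median 0.71) and 16 in HeyA8 (0.42), while 16 were lower in C13 (-0.29). They were split in OV2008, with 10 higher and 12 lower (median -0.06), in SK-OV-3, with 9 and 13 (-0.13), and in HeyA8-MDR 15 were higher and 6 lower (0.17). The 8 subunits of the cytosolic chaperonin TRiC were all higher in SK-OV-3-TR (median 0.51) and HeyA8-MDR (0.39) and all lower in C13 (-0.50), with 3 of 8 higher in OV2008 (-0.10). In HeyA8 7 of them were higher (0.37), and in SK-OV-3 7 were lower (-0.08). For comparison, the shares of all genes higher or lower in each line were near equal, as given with the first counts. Of 14 co-chaperones of HSP90 and HSP70, 13 were lower in C13 (median -0.44) and 10 higher in SK-OV-3-TR (0.25), but in HeyA8 6 were higher and 8 lower (-0.02). In HeyA8-MDR 11 were higher (0.24), and 9 were lower in both SK-OV-3 (-0.02) and OV2008 (-0.17). The 8 other mitochondrial chaperones and proteases had a median of 0.06 in SK-OV-3-TR, where HSPD1 and HSPE1 were at 1.01 and 1.05, and of -0.53 in C13. Their medians were -0.06 in HeyA8, 0.05 in HeyA8-MDR, 0.14 in SK-OV-3 and -0.21 in OV2008.

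**Figure D4:**
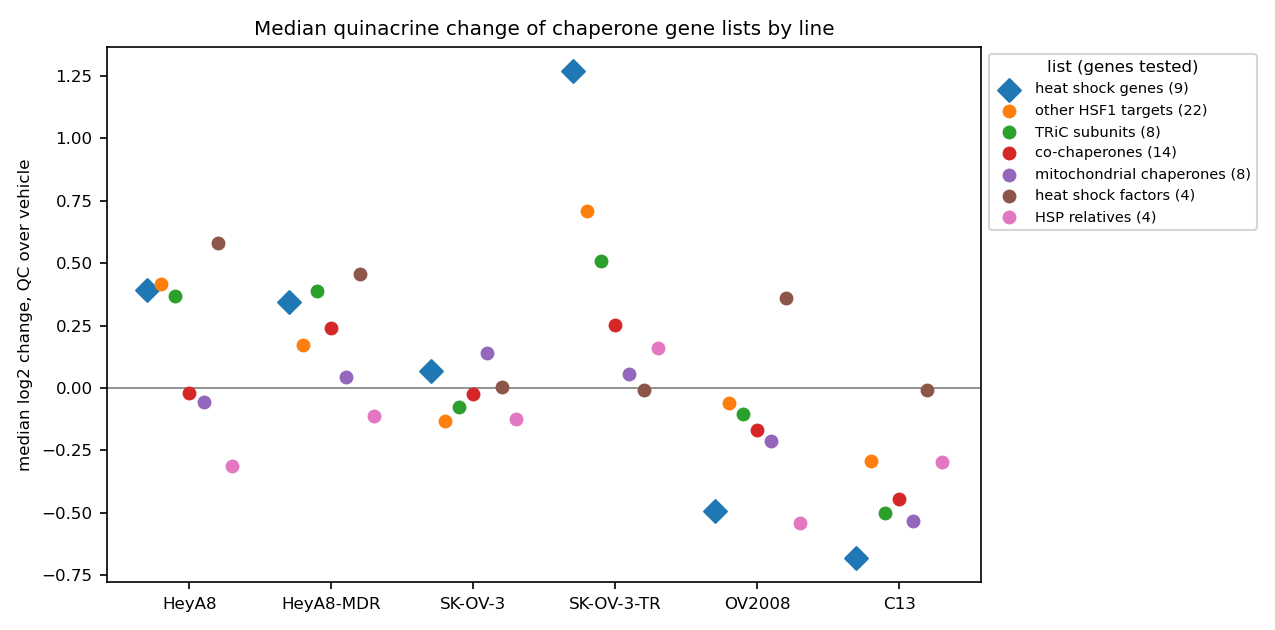
Median log2 change with QC over vehicle (vertical axis) of the 9 heat shock genes (diamonds) and of 6 lists of related genes (circles, number of genes tested in brackets) in each line (horizontal axis), 1 pair of libraries per line. The heat shock genes have the highest median in SK-OV-3-TR at 1.27 and the lowest in C13 at -0.68, with the other HSF1 targets next in SK-OV-3-TR at 0.71.

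Over all 6 lines, 7 of the 60 genes tested on the 6 lists (11.7%) had an unadjusted p under 0.05 by edgeR, a share below the 15.2% of all genes, and 0 had an adjusted one. HSPA4L, an HSP110 relative, was the 1 of the 22 targets with such a p (0.50, SE 0.152, adjusted p of 0.18), and ZFAND2A (0.27) and HSPA4 (0.22) came next. TRiC had 0 of 8, with CCT8 (0.30), CCT5 (0.17) and TCP1 (0.17) leading. Among the co-chaperones BAG1, a nucleotide exchange factor of HSP70, was at -0.57 (SE 0.196, adjusted p of 0.212), followed by DNAJC7 (0.23) and FKBP5 (-0.28). TRAP1, the mitochondrial HSP90, was at -0.30 (SE 0.126, adjusted p of 0.295), the 1 of its list of 8 with an unadjusted p under 0.05 by edgeR. LONP1 (-0.25) and CLPP (-0.16) came next in that list.

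Of the transcription factors themselves, HSF1 had a log2 fold change of 0.18 (SE 0.122, adjusted p of 0.517 by edgeR) over all lines, and HSF4 0.24. HSBP1, a negative regulator that binds HSF1, was at 0.41 (SE 0.146, adjusted p of 0.222). Of 10 further HSP70 and small heat shock relatives only 4 passed the expression filter. HSPA12A (-0.55), HSPA2 (-0.75) and HSPA14 (0.35) of these had an unadjusted p under 0.05 and adjusted p-values of 0.169, 0.268 and 0.323 by edgeR.

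HSPA6, the strictly inducible HSP70B′ that is silent in most unstressed cells and one of the 22 targets, is named here after its values were seen. It had 778 counts in HeyA8-MDR vehicle and 344 with QC, and 21 and 272 in HeyA8, the line whose QC library lay between the pair. The other 8 libraries had 29 counts or fewer. HSPA6, like DNAJB1 and HSPA1A, was higher in HeyA8-MDR vehicle than in HeyA8 and lower with QC in HeyA8-MDR. So was HSPA8, by smaller log2 differences of 0.30 and -0.08. Of the other targets DEDD2 (1.13 and -0.20), IER5 (0.29 and -0.82), SQSTM1 (0.34 and -0.08) and CRYAB (10 counts or fewer in this family) did so too. The targets FKBP4, ZFAND2A, DNAJB2, MRPL18, STIP1, AHSA1 and HSP90AB1 were higher in HeyA8-MDR vehicle but higher with QC there, as were HSPH1 and BAG3. Both kinds of difference use the same HeyA8-MDR vehicle library, and the share of all genes with this pattern was not counted.

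The lines were checked against markers. The epithelial keratin genes KRT8 and KRT18 were present in all 12 libraries, and the leukocyte genes PTPRC, CD14 and CD3E were under 1 CPM in all 12. The epithelial genes EPCAM and CDH1 reached only 2.68 and 0.203 CPM in the HeyA8 family. The Müllerian marker PAX8 was at 210 to 552 CPM in the HeyA8 and SK-OV-3 families but at 7.20 to 27.7 CPM in OV2008 and C13. Those lines instead had the squamous markers TP63 at 109 to 325, KRT5 at 2860 to 10700 and KRT14 at 8.90 to 89.7 CPM. KRT5 reached at most 56.9 CPM in the SK-OV-3 family and 0 in the HeyA8 family. Low PAX8 and high squamous markers go against the ovarian label of OV2008 and C13, whose origin was not tested. SOX17, also Müllerian, was at 0.0844 CPM or less in that family and at 6.15 CPM or more in the others. WT1 was low in all families (1.12 to 4.38 CPM). MUC16 was at 0.914 to 2.36 CPM in OV2008 and C13 and at most 0.244 CPM in the HeyA8 family. In the SK-OV-3 family it ran from 0.112 to 12 CPM, the highest value of the 12 libraries. The endothelial gene CDH5 was at 81.6 to 152 CPM in the HeyA8 family, where VWF reached at most 4.66 CPM. The part of these lineage differences in the heat shock levels was not tested.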

How the data were processed

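RNA-seq of poly(A) RNA was made from 12 libraries (TruSeq kit). The authors deposited raw counts per gene. The paper names TopHat, hg19 and HTSeq, whereas the submitters' processing notes name STAR 2.7.3a, HTSeq 0.6.1p1 and GRCh38.p13, and the table names no build or strand setting. Symbols were paired with 58620 of 60669 versioned Ensembl IDs, and the unpaired IDs hold 0.132% of the counts. Exon lengths, with the exons of all transcripts of a gene merged, came from a GENCODE annotation on GRCh37.

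The tests used edgeR 4.0.16 in R 4.3.3: filterByExpr (minimum count 10, minimum total 15; 18720 genes), TMM scaling, and a quasi-likelihood fit with a term per cell line and a QC effect in sensitive and in resistant lines. A second fit had 1 QC effect over all lines, and a further fit compared vehicle libraries with the isogenic family as a block. Tests were two-sided with Benjamini-Hochberg adjustment over all genes. With no replicate cultures per line, p-values measure the spread between lines. Both libraries of each cell line shared their deviations from the group means (correlations across genes 0.893 to 0.929), and the pairing is that of the line. Line values are log2 ratios of CPM with a prior count of 2.

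The members and lists were chosen with earlier results of these data known. Named are all members, the 3 genes per list with the smallest p over all lines, and the 5 genes most correlated with the members' mean pattern, with HSPA6 added later. Alternatives were a fit without the block, DESeq2 1.42.0, other scalings and filters, HSPA1A and HSPA1B summed, only 1 group's libraries, a family block, another prior count and each line left out. Adding pseudogene and readthrough counts to their gene was chosen after seeing the data. The fits were tested on simulated data with QC changes planted in some genes. Of the planted 2-fold changes, 28.4% were called after adjustment in sensitive, 30.7% in resistant and 58.0% over all lines. For 4-fold changes it was 69.6%, 72.3% and 89.3%. The same changes were planted in both groups, so the test of their difference could not be judged. Limits for 0 counts cover counting error only. Plots used matplotlib 3.10.9.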

Additional observations from a re-analysis of the deposited data

How the results depend on the processing

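Of the 45 values of single heat shock genes (9 genes in 5 comparisons), 670 recomputed values were obtained, and 600 kept their direction and stayed above the adjusted threshold of 0.05, 70 changed sign without being called, and 0 were called. The median of the 9 genes between resistant and sensitive lines in vehicle was -0.43 with RPLP0 scaling, beside a median of all genes of -0.39. Leaving out 1 line at a time gave medians from -0.22 to 0.23 in sensitive lines (without HeyA8 and without OV2008), -0.17 to 0.80 in resistant lines and -0.15 to 0.83 for their difference (both without SK-OV-3-TR and without C13), and -0.09 to 0.22 over all lines (without SK-OV-3-TR and without OV2008). Leaving out 1 family gave -0.13 to 0.15 in vehicle. The fit without the replicate block of cell lines gave medians of -0.16 in sensitive, 0.02 in resistant and -0.02 over all lines, and the genes of any kind with an unadjusted p under 0.05 went from 1234 to 30, 1128 to 23 and 2840 to 117. Heat shock genes with an unadjusted p under 0.05 appeared under these settings, each beside the share of all genes in the same fit: in resistant lines 3 with RPLP0 scaling (4.72%), 2 without the filter (4.13%), 1 with only the resistant libraries (6.95%), 1 without SK-OV-3-TR (6.33%) and 4 without C13 (7.29%), for the difference 1 without the filter (1.27%), 1 without SK-OV-3-TR (1.23%) and 4 without C13 (2.9%), and over all lines 3 with RPLP0 scaling (18%), 2 without the filter (9.19%) and 2 without C13 (13%). DESeq2 called 31 genes after adjustment in sensitive lines, 0 in resistant lines, 1 for the difference, 518 over all lines and 47 in vehicle, where edgeR called 0, and none was a heat shock gene of the 9. Summing HSPA1A and HSPA1B altered no value because HSPA1B had 0 counts. The causes of these shifts were not tested. HSPA1A, with 4 to 85 counts per library and 72.4% of its 100-base windows shared with HSPA1B, is the gene whose low counts limit its values.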
